A study of Mus musculus with 10 samples.

Results

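The genes described here act in G2 and M phase of the cell cycle, when a cell that has copied its DNA enters mitosis, separates its chromosomes and divides. Their levels were compared between lungs of young mice exposed to cigarette smoke and lungs of unexposed mice. The list holds 37 gene symbols. A gene was measured where the array annotation gave a probe set that symbol alone, and the probe set with the highest mean over the 10 arrays stood for it. In this way 36 of the 37 genes were measured, of 18193 genes in all, with Ccnb1 not analysed here. Of these, 30 passed a filter that kept the brighter 60% of probe sets, as did 13382 genes in all, and these 30 are called the tested members.

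All 10 mice were C57BL/6J from Jackson Laboratory and were 2 weeks old when whole lungs were taken. Each lung was hybridised to 1 Affymetrix mouse array. In the smoke group (n = 6) pups went into a smoke chamber together with their mother at the age of 1 day. Daily sessions lasted 1 hour during the initial 7 days and 2 hours during the next 7 days, from puffs of 35 ml and 2 seconds, with particulate matter averaging 90 mg per cubic metre. Control mice (n = 4) breathed filtered air apart from the exposed animals. Sex is given as unknown, and no litter or array batch is stated. Each p-value below sets a difference against the spread between these arrays only, and cannot separate exposure from litter or batch. Alveolar markers were measured in both groups as a check of the tissue. The mean log2 intensity over 8 alveolar type 2 genes was 12.69 to 13.35 in control arrays and 12.07 to 13.50 in smoke arrays.

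Progress through G2 and M phase is driven by cyclin A and cyclin B bound to the kinase Cdk1. The spindle checkpoint holds cells in metaphase until each chromosome is attached to microtubules, and the anaphase-promoting complex then marks cyclins and securin for destruction. Transcripts of this programme are low in resting cells and climb in cells about to divide. In the postnatal lung, dividing cells include alveolar epithelium, endothelium and fibroblasts during septation, as well as blood cells. In whole-lung RNA, more dividing cells and more of these transcripts per dividing cell cannot be told apart.

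Genes of this programme share promoter elements, and their sequences are shown because the members were examined as a set. The cell cycle genes homology region (CHR, letters TTTGAA or TTCGAA) is bound by the MuvB core of the DREAM and B-Myb complexes, and the CCAAT box (CCAAT) by NF-Y. RefSeq promoter windows (build GRCm38.p6, 250 bases before to 50 bases after the gene start) were found for 33 of the 37 members. Prc1 and Ect2 have 2 overlapping windows each, which gives 35 windows. No window was used for Tpx2, Kif20a, Ccna2 and Aurkb. The windows below belong to the 4 tested members with the smallest p and a window, and to both B-type cyclins. They read 5′ to 3′ along the gene, with matches to CHR, CCAAT or E2F letters on either strand in capitals.

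Prc1: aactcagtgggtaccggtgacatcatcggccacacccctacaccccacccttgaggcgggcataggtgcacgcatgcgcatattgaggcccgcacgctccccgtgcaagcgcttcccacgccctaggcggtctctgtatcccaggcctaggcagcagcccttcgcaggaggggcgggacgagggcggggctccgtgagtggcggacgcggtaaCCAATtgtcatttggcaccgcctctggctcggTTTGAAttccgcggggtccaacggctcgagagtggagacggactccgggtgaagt
Mki67: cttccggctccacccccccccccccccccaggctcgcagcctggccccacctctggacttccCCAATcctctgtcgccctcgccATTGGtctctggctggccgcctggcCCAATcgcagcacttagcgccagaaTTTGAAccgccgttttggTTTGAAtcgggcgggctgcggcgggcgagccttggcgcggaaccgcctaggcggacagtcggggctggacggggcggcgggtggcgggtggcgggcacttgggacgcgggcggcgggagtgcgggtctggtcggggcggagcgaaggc
Cenpf: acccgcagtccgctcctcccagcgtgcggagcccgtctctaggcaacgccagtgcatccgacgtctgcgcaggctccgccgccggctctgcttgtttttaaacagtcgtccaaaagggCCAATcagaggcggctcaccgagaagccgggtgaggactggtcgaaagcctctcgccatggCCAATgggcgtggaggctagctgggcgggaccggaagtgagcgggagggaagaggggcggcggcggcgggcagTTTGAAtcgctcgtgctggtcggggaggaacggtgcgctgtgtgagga
Cenpa: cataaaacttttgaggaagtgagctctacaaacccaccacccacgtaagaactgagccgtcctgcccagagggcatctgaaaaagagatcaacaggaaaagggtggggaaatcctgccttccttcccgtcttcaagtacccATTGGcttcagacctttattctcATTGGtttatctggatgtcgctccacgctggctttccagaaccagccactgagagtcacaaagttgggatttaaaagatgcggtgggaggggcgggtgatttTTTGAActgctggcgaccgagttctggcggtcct
Ccnb1: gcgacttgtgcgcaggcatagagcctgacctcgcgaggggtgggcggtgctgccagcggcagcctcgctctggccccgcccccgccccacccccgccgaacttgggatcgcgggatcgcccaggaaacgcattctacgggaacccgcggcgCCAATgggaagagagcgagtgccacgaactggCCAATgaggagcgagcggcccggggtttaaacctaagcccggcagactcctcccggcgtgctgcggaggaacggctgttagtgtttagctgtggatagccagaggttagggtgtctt
Ccnb2: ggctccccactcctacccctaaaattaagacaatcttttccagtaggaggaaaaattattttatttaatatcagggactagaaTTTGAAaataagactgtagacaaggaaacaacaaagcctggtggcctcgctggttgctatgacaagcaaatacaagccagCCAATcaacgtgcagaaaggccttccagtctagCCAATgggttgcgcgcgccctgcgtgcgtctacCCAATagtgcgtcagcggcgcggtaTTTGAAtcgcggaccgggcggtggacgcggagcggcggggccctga

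The windows lie at chr7:80294201-80294500 on the plus strand for Prc1 and at chr7:135716330-135716629 on the minus strand for Mki67. That of Cenpf is chr1:189688037-189688336 on the minus strand, and that of Cenpa is chr5:30666636-30666935 on the plus strand. Ccnb1 lies at chr13:100786437-100786736 and Ccnb2 at chr9:70421505-70421804, both on the minus strand. Counted from the gene start, where the first transcribed base is 1, TTTGAA begins at -5 in Prc1, at -116 and -98 in Mki67, at 3 in Cenpf and at 17 in Cenpa. In Ccnb2 it begins at -167 and at 5, and 3 CCAAT boxes begin at -87, -54 and -21. The Ccnb1 window holds 2 CCAAT boxes, at -99 and -67, and no match to either form of the CHR.

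TTTGAA was found on either strand in 28 of the 35 member windows (80%), against 17.9% of all 32851 windows in the table. TTCGAA was found in 3 (8.57%, against 1.56%). CCAAT was found in 29 (82.9%, against 37.4%), and 21 windows held at least 2 (60%, against 11.7%). A CHR in either form and a CCAAT box occurred together in 26 windows (74.3%, against 7.52%), and in 1 window a match to one overlapped a match to the other. E2F letters (TTTCGCGC or TTTGGCGC) were found in 1 window, that of Cdk1 (2.86%, against 0.813%). Birc5, Nuf2 and Nusap1 held neither a CHR nor a CCAAT match. These counts describe letters in a window and not bound sites.

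G2 and M phase transcripts lay higher in smoke-exposed lungs in most members, by amounts that no single member's test passed. All 30 tested members had a log2 change above 0, where 56.9% of all tested genes did. These members are not replicates, because all were measured on the same 10 arrays. They were chosen with earlier results of these data known. Their median log2 change was 0.51, against 0.06 over all genes tested, and single values ran from 0.05 for Ect2 to 0.94 for Mki67. By limma with Benjamini-Hochberg adjustment over all tested probe sets, 0 of the 30 were higher and 0 were lower, with all-gene shares of 0.0224% and 0.702%. At an unadjusted p under 0.05, 7 members lay higher (23.3%, against 5.75% of all genes) and 0 lower (against 4.47%). The 7 were Prc1, Mki67, Cenpf, Cenpa, Kif2c, Ccna2 and Spc25. In 3 members, Prc1, Cenpa and Kif2c, every smoke array lay above every control array (10%, against 1.97%). This count was 7 without smoke array 5, where 356 of 13382 genes qualified. Because the filter uses the mean over all arrays, a dim gene high in smoke is more likely to pass it. Without the filter, 35 of the 36 measured members had a log2 change above 0, against 58.1% of genes, and the median was 0.44, against 0.06.

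Other fits called between 0 and 4 members. Prc1 passed with the values as deposited (limma, log2 change 1.03, adjusted p = 0.0488), where 8 genes in all were higher, and with array weights (adjusted p = 0.0155), where 41 were. With the actin ratio described below as a covariate, Mki67 and Cdc20 passed (limma, adjusted p = 0.0136 and 0.0279) among 151 genes higher. Over arrays numbered 1 to 4 in each group, 4 members passed, namely Mki67, Cdc20, Ccna2 and Cdca8, among 418 genes higher. With the array number as a block on the same arrays, Mki67, Cdc20, Cdca8 and Hmmr passed, and Ccna2 did not (limma, adjusted p = 0.0643), among 444 genes higher. Both fits leave out smoke arrays 5 and 6, which read lowest among smoke arrays in Mki67, Cdc20, Ccna2 and Cdca8. Those arrays were also high in Xist and had the lowest actin ratios, as described below. Control arrays 2 and 4, high in Xist too, stayed in both fits.

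**Figure D1:**
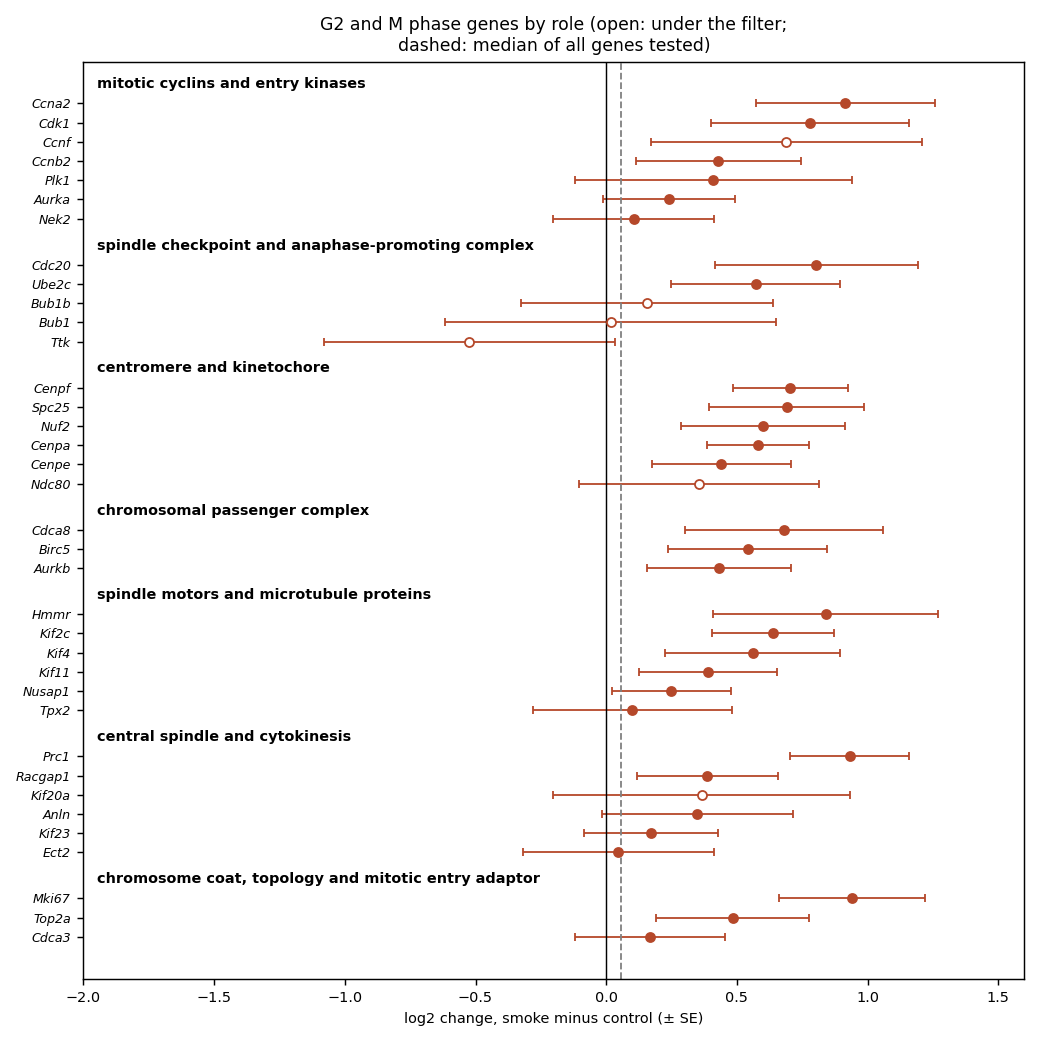
Log2 change (smoke minus control, horizontal axis) with its standard error for the 36 measured members, grouped by role; filled points are the 30 tested members and open points the 6 under the filter. The dashed line is the median of all genes tested, 0.06, and 35 of the 36 points lie above 0, with Ttk the exception at -0.52.

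Among the mitotic cyclins and entry kinases, 0 of 6 tested members passed and the median log2 change was 0.42. Ccna2 encodes cyclin A2, which works in both S phase and early mitosis. Its log2 intensity was 7.78, 8.29, 8.34 and 8.21 in control arrays 1 to 4, and ran from 8.28 through a median of 9.02 to 9.95 in the smoke group. The difference was 0.92 ± 0.34 (log2 change ± SE; limma, adjusted p = 0.399), or 1.89-fold. Smoke arrays 1, 2 and 4 stood well above the controls, at 9.95, 9.41 and 9.70, and smoke array 5 lay within their range. A further tested probe set of Ccna2 had a log2 change of 0.79 ± 0.31.

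Cdk1 encodes the kinase that these cyclins activate. Control arrays 1 to 4 read 7.78, 8.04, 9.03 and 8.08, and smoke arrays ran from 7.77 through a median of 9.13 to 9.79. The groups overlapped, since control array 3 was high and smoke array 1 was the lowest of all 10. The log2 change was 0.78 ± 0.38 (limma, adjusted p = 0.519), and it was 1.05 without control array 3 and 0.62 without smoke array 4.

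The other members of this group had smaller differences. Ccnb2, or cyclin B2, ran from 7.14 to 7.51 in controls and from 6.80 to 8.43 after smoke (0.43 ± 0.32), with smoke array 1 the lowest. Plk1, a kinase of mitotic entry and spindle assembly, had the largest standard error of the tested members, at 5.29 to 7.26 in controls and 5.63 to 8.11 after smoke (0.41 ± 0.53). Without control array 2, the Plk1 difference was -0.03, and without smoke array 4 it was 0.69. Aurka, the centrosome kinase, was at 0.24 ± 0.25, at 0.12 without control array 2 and at 0.32 without smoke array 3. For Nek2, a kinase that separates centrosomes, control arrays read 7.65, 7.60, 8.03 and 8.33 and smoke arrays 6.94 to 8.56 with a median of 8.06 (0.11 ± 0.31; limma, adjusted p = 0.922). Ccnf, the F-box cyclin, was under the filter, at an intensity of 4.3 to 56.8 among controls and 3.9 to 103.7 among smoke arrays, and had 0.69 ± 0.52 in the fit without the filter (adjusted p = 0.729).

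Both tested members of the spindle checkpoint and anaphase-promoting complex group lay higher in smoke, and neither passed. Cdc20 encodes the activator that brings substrates to the anaphase-promoting complex. Control arrays 1 to 4 read 10.25, 10.41, 10.37 and 9.99, and smoke arrays 9.87 to 11.86 with a median of 11.32. Smoke arrays 1 to 4 all exceeded every control, at 11.86, 11.83, 11.11 and 11.53, while smoke arrays 5 and 6 read 9.87 and 10.14. The log2 change was 0.80 ± 0.39 (limma, adjusted p = 0.518). That probe set may bind related transcripts by its _x_at design. A further tested probe set had 0.21 ± 0.26 and a different order, with smoke array 1 the lowest of all 10 arrays at 7.37. There smoke arrays 5 and 6 read 8.36 and 8.49, above every control. Ube2c, the ubiquitin-conjugating enzyme of the same complex, also had another order among smoke arrays than the first Cdc20 probe set. Its controls read 6.54 to 7.37, smoke arrays 5 and 6 were the highest at 8.50 and 8.04, and smoke array 2 read 6.97 (0.57 ± 0.32).

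The checkpoint kinases were too dim to test with the filter. In the fit without it, Bub1 was at 0.02 ± 0.63, Bub1b (the BubR1 protein) at 0.16 ± 0.48 and Ttk (the Mps1 kinase) at -0.52 ± 0.56, with limma adjusted p-values of 1.00, 0.944 and 0.809. Ttk was the 1 measured member with a negative value, and its control range of 53.5 to 131.0 (intensity) lay inside its smoke range of 22.6 to 163.3. Other probe sets of these genes differed, at 0.60 for Bub1, 1.15 and 0.04 for Bub1b and 0.27 for Ttk.

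Log2 changes of centromere and kinetochore genes ran from 0.44 to 0.70 over 5 tested members with a median of 0.60, and 0 passed. Cenpf, a large kinetochore protein, read 7.65, 8.09, 8.15 and 7.63 in controls and 8.06 to 8.97 with a median of 8.58 after smoke. Smoke array 5 was the only one within the control range, and the log2 change was 0.70 ± 0.22 (limma, adjusted p = 0.299). A further tested probe set of Cenpf had 0.39 ± 0.32, with 3 of 6 smoke arrays above every control. Cenpa, the histone H3 variant that marks centromeres, read 8.77, 8.52, 8.57 and 8.58 in controls and 8.78 to 9.68 with a median of 9.17 after smoke. Its groups did not overlap, although smoke array 5 was barely above control array 1 (0.58 ± 0.19; limma, adjusted p = 0.353). The other tested probe set of Cenpa stood at -0.03 ± 0.54.

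Spc25 belongs to the Ndc80 complex, which ties kinetochores to microtubules. Controls read 7.87, 7.74, 8.25 and 7.88, and smoke arrays 7.99 to 9.37 with a median of 8.59 (0.69 ± 0.30; limma, adjusted p = 0.473). Smoke arrays 1, 2 and 4 were above every control, and the other 3 were not. A further tested probe set of Spc25 had 0.03 ± 0.26. Nuf2, of the same complex, was at 0.60 ± 0.31 with its highest value, 7.99, in smoke array 3. Cenpe, a kinetochore motor, was at 0.44 ± 0.27. Ndc80 itself was under the filter, at an intensity of 10.7 to 48.9 among controls and 23.2 to 41.7 among smoke arrays (0.35 ± 0.46 without the filter, adjusted p = 0.838).

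**Figure D2:**
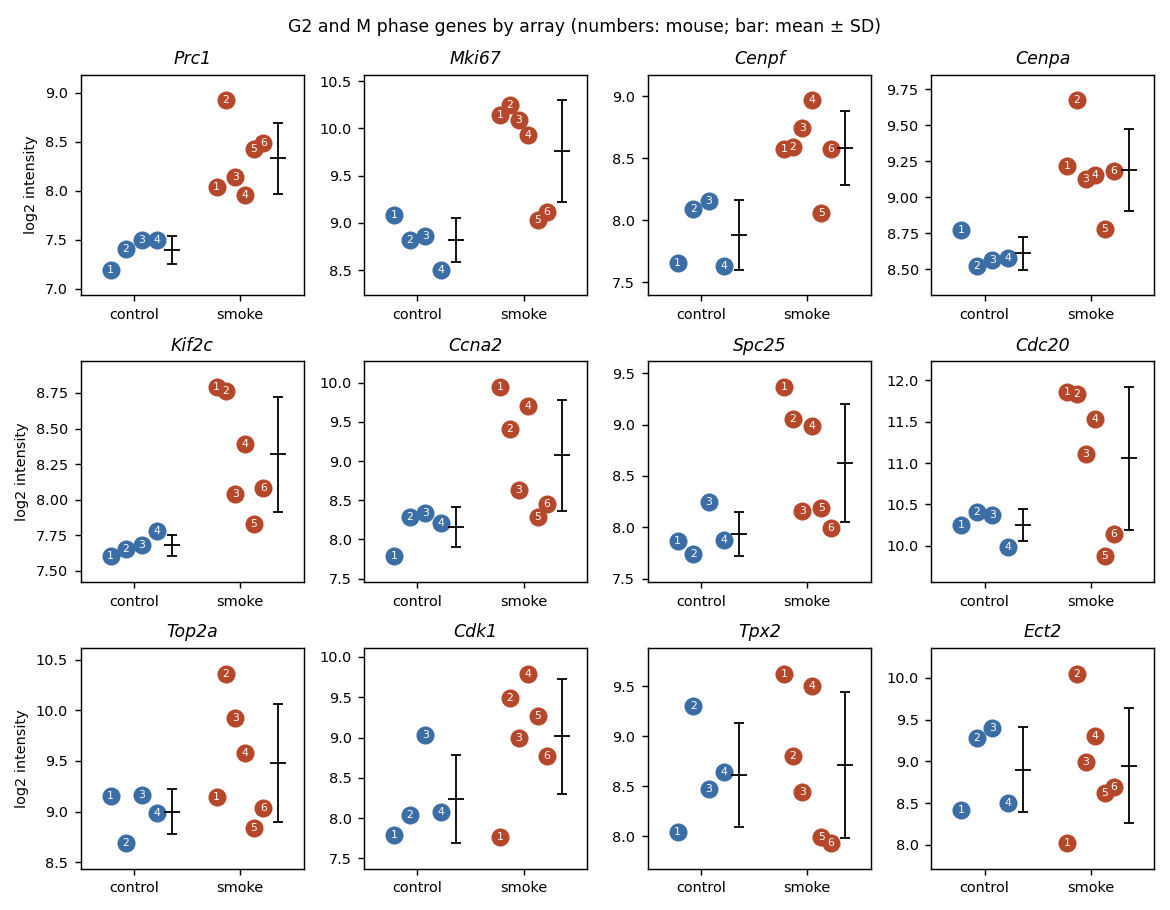
Log2 intensity (vertical axis) of 12 members in each array, control (blue) and smoke (red), with the mouse number in each point and the group mean ± SD beside it. Prc1, Cenpa and Kif2c have no overlap between groups, and Tpx2 and Ect2 overlap throughout. Mki67 and Cdc20 split the smoke arrays into a high set of 1 to 4 and a low pair of 5 and 6. The other tested probe set of Cdc20, not drawn, does not have this split.

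The chromosomal passenger complex corrects faulty attachments and prepares cleavage. All 3 members were tested, with a median of 0.54, and 0 passed. Cdca8 (borealin) ran from 9.20 to 9.87 in controls and from 9.30 to 11.25 after smoke (0.68 ± 0.38), with smoke arrays 5 and 6 at 9.30 and 9.31. A further tested probe set of Cdca8 had 0.64 ± 0.28. Birc5 (survivin) ran from 7.20 to 7.75 in controls and from 7.12 to 8.63 after smoke (0.54 ± 0.30), here with smoke arrays 5 and 6 the highest. Aurkb, the kinase of the complex, was at 0.43 ± 0.28.

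Spindle motors and microtubule proteins had a median of 0.47 over 6 tested members, and 0 passed. Kif2c, a kinesin that shortens microtubules at centromeres, read 7.60, 7.65, 7.68 and 7.78 in controls and 7.83 to 8.79 with a median of 8.24 after smoke (0.64 ± 0.23; limma, adjusted p = 0.396). Every smoke array was above every control. That probe set may bind related transcripts by its _x_at design, and the gene's other tested probe sets stood at 0.12 ± 0.31 and -0.07 ± 0.33. Hmmr, a spindle protein and hyaluronan receptor, ranged most widely after smoke, from 7.13 in array 5 to 9.73 in array 1, with controls at 7.41 to 7.97 (0.84 ± 0.43). A further tested probe set of Hmmr had 0.22 ± 0.30, and its probe sets under the filter had 0.08, 0.08 and -0.02.

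Among the rest of that group, Kif4, a chromosome-bound kinesin, was at 0.56 ± 0.34, and Kif11, the motor that pushes spindle poles apart, at 0.39 ± 0.26. Nusap1, which bundles microtubules near chromosomes, was at 0.25 ± 0.23. Without smoke array 1, Kif4 was at 0.33 and Nusap1 at 0.15, and without smoke arrays 1 and 2 they were at 0.23 and 0.06. Without control array 2, Kif4 was at 0.73 and Nusap1 at 0.36. Tpx2, which activates Aurora A on the spindle, read 8.04, 9.30, 8.47 and 8.64 in controls and 7.93 to 9.62 with a median of 8.62 after smoke (0.10 ± 0.38; limma, adjusted p = 0.943). The groups overlapped at both ends. Its direction is not settled: Tpx2 was at -0.25 with array weights and at -0.0028 with median centring. The other tested probe sets of Tpx2 had 0.32 ± 0.29 and -0.15 ± 0.41.

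Prc1 had the smallest p of all members. It encodes the protein that bundles antiparallel microtubules in the central spindle. Control arrays 1 to 4 read 7.19, 7.40, 7.49 and 7.50, and smoke arrays 7.96 to 8.92 with a median of 8.28. All 6 smoke arrays lay above all controls. The log2 change of 0.93 ± 0.23, or 1.91-fold, did not pass (limma, adjusted p = 0.146), and it ran from 0.81 without smoke array 2 to 1.01 without smoke array 4. The probe set used for Prc1 is of the _s_at kind, which can bind several transcripts. The gene's other probe set, under the filter, had 0.73 ± 0.30 with 5 of 6 smoke arrays above every control.

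The other cytokinesis members differed less, and 0 of the 5 tested in this group passed (median 0.35). Racgap1, a subunit of centralspindlin, was at 0.39 ± 0.27, Anln, the contractile ring protein anillin, at 0.35 ± 0.37 and Kif23, the centralspindlin motor, at 0.17 ± 0.26. Leaving out a single array moved each value down or up. Racgap1 ran from 0.22 without smoke array 2 to 0.50 without smoke array 6. Anln ran from 0.11 without control array 2 to 0.54 without smoke array 1. Kif23 ran from 0.02 without smoke array 4 to 0.29 without smoke array 5. Ect2, the exchange factor that activates RhoA at the division plane, read 8.42, 9.28, 9.40 and 8.50 in controls and 8.02 to 10.05 with a median of 8.85 after smoke (0.05 ± 0.36; limma, adjusted p = 0.977). The highest and the lowest of its 10 values were both in smoke arrays, and its sign turned in 4 of the 10 single omissions. Kif20a was under the filter, at an intensity of 8.5 to 49.0 among controls and 6.4 to 59.4 among smoke arrays (0.37 ± 0.57 without the filter, adjusted p = 0.869).

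Mki67, the chromosome surface protein known as the Ki-67 proliferation marker, had the largest difference. Control arrays 1 to 4 read 9.08, 8.82, 8.87 and 8.51, and smoke arrays 9.03 to 10.25 with a median of 10.01. Smoke arrays 1 to 4 formed a tight high set at 10.14, 10.25, 10.09 and 9.93, while arrays 5 and 6 stood at 9.03 and 9.12, next to the highest control. The log2 change was 0.94 ± 0.28, or 1.92-fold (limma, adjusted p = 0.268). The rule in the series' design text (1.5-fold, here in 16 of 24 pairs of arrays, with an unadjusted p under 0.05) called Mki67 and Prc1 among the members and 159 genes higher in all.

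Top2a encodes topoisomerase II alpha, which untangles sister chromatids. Controls read 9.15, 8.69, 9.16 and 8.98, and smoke arrays 8.84 to 10.36 with a median of 9.36 (0.48 ± 0.29; limma, adjusted p = 0.594). Smoke arrays 2, 3 and 4 were above every control, and arrays 1, 5 and 6 were not. Without smoke array 2 the Top2a difference was 0.31, and without smoke array 5 it was 0.61. A further tested probe set had 0.34 ± 0.21. Cdca3, which targets Wee1 for destruction at mitotic entry, read 7.93, 8.45, 7.49 and 8.17 in controls and 7.64 to 8.87 with a median of 8.09 after smoke (0.17 ± 0.29; limma, adjusted p = 0.866). It was at -0.08 with array weights. That probe set may bind related transcripts by its _x_at design, and the other tested probe sets of Cdca3 had 0.50 ± 0.42 and 0.33 ± 0.40.

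The smoke arrays did not share one profile over the members. The mean log2 intensity of the 30 tested members was 7.90 ± 0.07 over control arrays (SD, n = 4) and 8.41 ± 0.24 over smoke arrays (SD, n = 6). The lowest smoke array, at 8.19, was above the highest control, at 8.01. Over all genes tested, the same mean was 9.27 to 9.29 in control arrays and 9.27 to 9.41 in smoke arrays. Smoke array 2 was the highest, at 8.82, and lay above every control in 24 of the 30 members (80%, where the share over all tested genes was 44.4%). Smoke array 4 did so in 21 (70%, against 31.8%), smoke array 1 in 19 (63.3%, against 42.7%) and smoke array 6 in 17 (56.7%, against 26.6%). Smoke arrays 5 and 3 did so in 14 and 13 (46.7% and 43.3%, against 29.3% and 27%). Smoke array 1 also lay below every control in 6 members, smoke array 5 in 4 and smoke array 6 in 2 (20%, 13.3% and 6.67%, against 33.1%, 26.2% and 25.3% of genes).

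**Figure D3:**
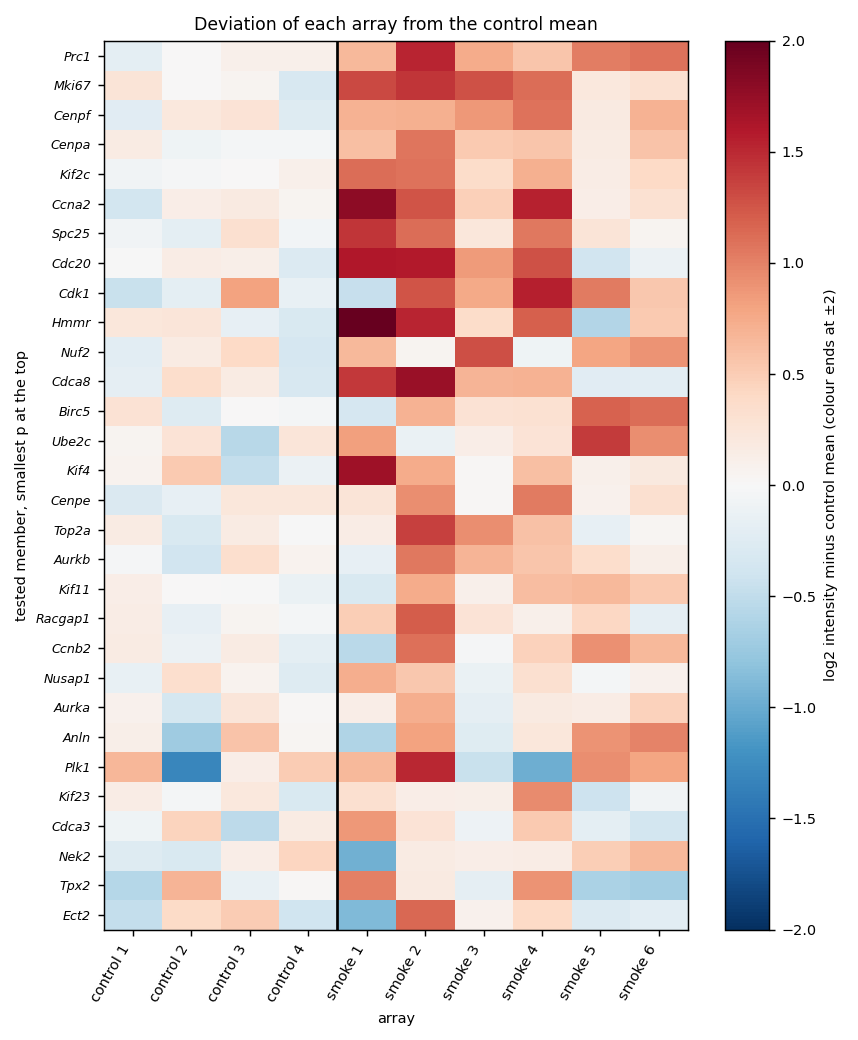
Log2 intensity minus the control mean for each of the 30 tested members (rows, smallest p at the top) in each array (columns); red is higher and blue lower, with colours ending at 2 log2 units. Smoke array 2 is red in most rows, smoke array 1 holds both the deepest reds (Hmmr, Ccna2) and some blues (Nek2, Ect2), and smoke arrays 5 and 6 are pale for Mki67, Cdc20 and Cdca8 but red for Birc5, Ube2c and Prc1.

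RNA measures also differed between arrays. The ratio of the actin 3′ probe set to the 5′ one, which is larger when RNA is shorter or cDNA synthesis stops early, was 31.6 and 29.4 in smoke arrays 1 and 2. It was 9.26 and 10.3 in smoke arrays 3 and 4, 2.18 and 2.98 in smoke arrays 5 and 6, and 3.96 to 10.4 in controls. The same ratio of Gapdh did not set smoke array 1 apart in that direction, at 4.76 against 4.82 to 5.89 in controls. It was 9.16 in smoke array 2, 5.94 and 3.68 in smoke arrays 3 and 4, and 1.40 and 2.13 in smoke arrays 5 and 6. The mean of smoke arrays 1 and 2 exceeded that of smoke arrays 5 and 6 in 22 of the 30 members (73.3%, against 55.4% of all genes). Without smoke arrays 1 and 2, the members' median log2 change was 0.40, against 0.03 over all genes, and 28 of 30 were above 0. Prc1 was then at 0.86 and Mki67 at 0.72, while Cdc20 was at 0.41 and Cdca8 at 0.24. Fitted with that ratio, on the log2 scale, as a covariate, the median was 0.47. The part of the ratio in the result was not tested further. Smoke arrays 5 and 6, with control arrays 2 and 4, were also those high in Xist, a transcript of female cells, and with high or low Xist as a factor the median was 0.49. Among smoke arrays, the actin ratio and Xist cannot be told apart for arrays 5 and 6.

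**Figure D4:**
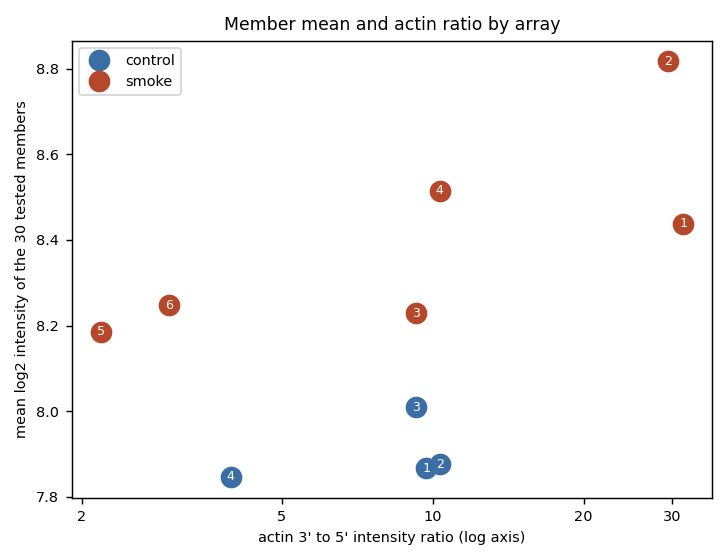
Mean log2 intensity of the 30 tested members (vertical axis) against the actin 3′ to 5′ ratio (log axis) in each array, with mouse numbers in the points. The 6 smoke arrays (red, 8.19 to 8.82) all lie above the 4 controls (blue, 7.85 to 8.01). The mean over all genes tested is 9.27 to 9.29 in control arrays and 9.27 to 9.41 in smoke arrays. Among smoke arrays, the highest member mean is in array 2, with an actin ratio of 29.4. The lowest is in array 5, with a ratio of 2.18. The part of the ratio in these means was not tested.

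Many members had more than 1 probe set. The 36 measured members had 80, and 25 members had several. Of 44 probe sets beyond the ones used, 16 passed the filter, and 12 of these had the same sign as the one used. The 4 with the opposite sign belonged to Cenpa, Kif2c, Nek2 and Tpx2. Among dimmer probe sets, named here after their values were seen, 1 of Kif23 had 1.48 ± 0.40 and 1 of Cenpe had -0.56 ± 0.20 with all smoke arrays below all controls (limma without the filter, adjusted p = 0.281 and 0.460). With the tested probe sets of each gene averaged, all 30 members stayed above 0 with a median of 0.42, against 0.03 over all genes, and 2 members and 245 of 13382 genes had every smoke array above every control. Without probe sets of the _x_at and _s_at kinds, which can bind several transcripts, 26 of 27 members were above 0. Their median was 0.43, against 0.04 over all genes. Prc1, Cdca8 and Aurkb were not among the 27, having no tested probe set of another kind. Every smoke array was then above every control in 1 member and in 254 of 12923 genes.

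Other genes of the cell cycle were examined as lists. Of 47 tested genes among other G2 and M genes, 0 passed, 38 were above 0, and an unadjusted p under 0.05 was reached by 7 lying higher and 0 lying lower, with a median of 0.35. Over all genes, 56.9% were above 0, and 5.75% and 4.47% reached that p as higher and lower. The smallest p-values were those of Sgo2a, a shugoshin that protects cohesin, at 1.10 ± 0.30, and Iqgap3, a scaffold protein, at 0.95 ± 0.31 (limma, adjusted p = 0.219 and 0.327). In both, and in no other of the 47, all smoke arrays lay above all controls. Over all genes tested, 264 of 13382 did so. Other lists lay nearer to all genes. The median was 0.02 over 13 entry switch regulators, 0.09 over 14 core subunits of the anaphase-promoting complex and 0.18 over 45 DNA replication and S phase genes, and 0 passed in each. Fzr1, the other activator of the anaphase-promoting complex, was at 0.72 ± 0.27, and the phosphatase Cdc25a at 0.55 ± 0.22. Anapc5 and Anapc7 were at 0.46 ± 0.19 and 0.36 ± 0.17. In the S phase list, Tipin, a replication fork protein, was at 0.42 ± 0.16 and Rrm2, a ribonucleotide reductase subunit, at 1.08 ± 0.47.

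Transcriptional regulators of the programme had members in both directions, with 0 of 23 passing and a median of 0.14. Nfyb, a subunit of the CCAAT-binding factor, lay lower, at -0.72 ± 0.18 (limma, adjusted p = 0.166), from 9.19 to 9.56 in controls to 8.29 to 8.84 after smoke, with no overlap. E2f7, a repressor of the E2F family, lay higher, at 0.77 ± 0.23 (limma, adjusted p = 0.258). It ran from 6.99 to 7.63 in controls and from 7.84 to 8.70 after smoke, also with no overlap. Nfyb and E2f7 were the only such genes of the 23. Over all 13382 genes tested, 283 had every smoke array below every control and 264 had every smoke array above. Among 14 G1 cyclins and inhibitors of cyclin-dependent kinases 0 passed, and the median was 0.01. Cdkn1a, or p21, which restrains Cdk complexes, was at -1.45 ± 0.50, and Cdkn2c at 0.56 ± 0.20 (limma, adjusted p = 0.370 and 0.394).

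**Figure D5:**
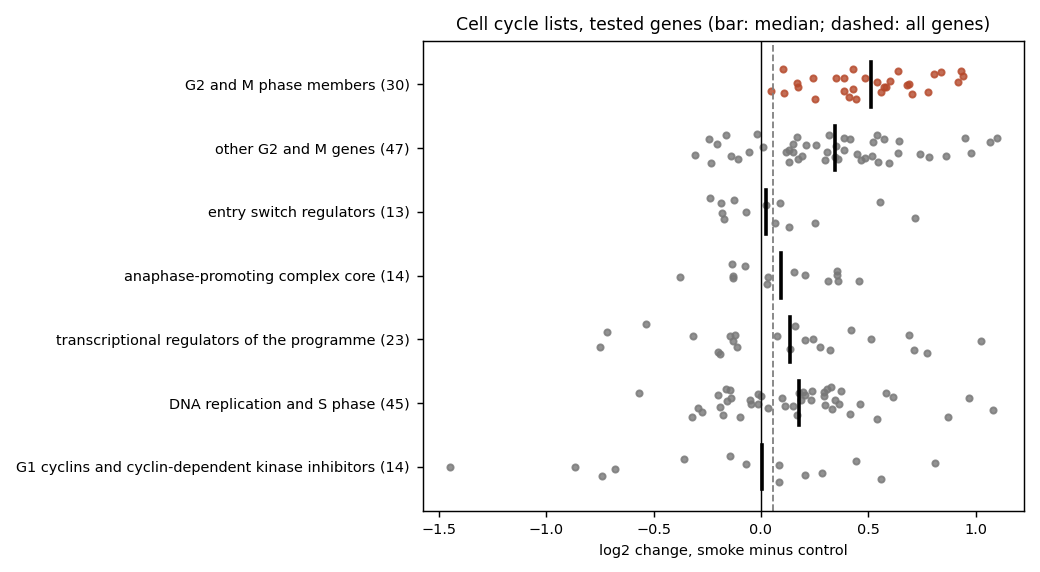
Log2 change (smoke minus control, horizontal axis) of each tested gene in the G2 and M phase members (red) and 6 other cell cycle lists (grey), with list medians as black bars and the median of all genes as a dashed line. All 30 members lie above 0 with a median of 0.51, the other G2 and M genes have a median of 0.35, and the remaining medians lie between 0.01 and 0.18.

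Markers of other cell types were measured beside the members. B cell markers lay higher in smoke, with 7 of 8 above 0, a median of 0.64 and 0 passing. Their summed intensity was 1812 to 2346 in controls and 2262 to 2872 after smoke. Thymocyte markers had 5 of 6 above 0 with a median of 0.39 and 0 passing, and summed intensities of 2093 to 3992 and 1915 to 6233. Erythroid markers had 2 of 5 above 0 with a median of -0.14, and sums of 7026 to 9870 and 7470 to 10235. Of 7 neutrophil markers 3 passed as lower, with a median of -0.84 and sums of 25286 to 36845 and 7963 to 17492. Macrophage and monocyte markers had 2 of 9 above 0 with a median of -0.58 and 0 passing, and sums of 27926 to 36614 and 22688 to 31704. Smooth muscle and pericyte markers had 6 of 8 above 0 with a median of 0.35 and 0 passing, and sums of 15061 to 23085 and 22820 to 27273. Mesothelial markers had 0 of 4 above 0 with a median of -0.57 and 0 passing, and sums of 5176 to 6139 and 3289 to 5508. Endothelial markers had 2 of 9 above 0 with a median of -0.15 and 0 passing. Fibroblast and mesenchyme markers had 4 of 8 above 0 with a median of -0.05 and 0 passing. In the alveolar type 2, alveolar type 1 and club lists 0 of 8, 8 and 7 tested genes passed, with medians of -0.02, -0.06 and 0.16. In the ciliated, T and natural killer cell, heart muscle and fat lists, 0 of 8, 5, 7 and 2 tested genes passed. Their medians were -0.08, -0.20, -0.29 and -0.81. The fat median rests on Adipoq, at -0.68 ± 1.03, and Fabp4, at -0.95 ± 0.62. Mean log2 intensities of ciliated markers were 8.70 to 9.23 in controls and 8.47 to 8.98 after smoke. None of the measured markers in these lists was at the floor on every array. The part of these cells in the members' levels was not tested.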

How the data were processed

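Total RNA extracted with Trizol was amplified, labelled and hybridised, 1 array per mouse, per the labels' protocols. The authors deposited 1 linear intensity per probe set and array. Which program summarised the probes is not given in the sources used here. Each array had a 2% trimmed mean of 500.0. After the smallest positive value replaced 1 value of 0, log2 values were quantile normalized between arrays and floored at their 10th percentile (intensity 15.8). After 64 control probe sets were left out, the upper 60% by mean were tested (27022). The test of smoke minus control was that of limma 3.58.1 (R 4.3.3; lmFit and eBayes with trend, two-sided, Benjamini-Hochberg threshold 0.05). Symbols came from the platform annotation (34945 probe sets with 1 symbol, 932 with several, 9160 with none), and a GRCm38.p6 table changed 0.

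The members and lists were chosen with earlier results of these data known. Named genes were the 8 tested members with the smallest p, the 4 with the lowest log2 change, Mki67, Top2a, Ccnb1 and Cdk1, and the 2 smallest p-values of each list. Alternatives covered normalization, filter, floor, variance model, weights, probe sets, covariates, omitted arrays (keeping the normalization and filter) and the design text's rule, run as 16 of 24 pairs of arrays at 1.5-fold, because the 9 pairs it names do not arise from 4 and 6 arrays. Correlations between arrays ran from 0.747 to 0.975, and 0 pairs were identical. In simulated arrays of 27022 independent probe sets, the fit recovered 64% and 68% of 50 genes lowered or raised by 2 log2 units, and 14% and 28% at 1 unit, with 5 false calls. The number of arrays limits the precision, and no background level per probe set was used. Plots used matplotlib 3.10.9 in Python 3.11.15.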

Additional observations from a re-analysis of the deposited data

Results flagged for a closer look

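Nek2 in smoke array 1 stood apart from the other smoke arrays, at a log2 intensity of 6.94 against 8.04 for the nearest, a gap of 0.68 of the group's range, above Dixon's 95% critical value. The log2 change of Nek2 was 0.32 without that array. Of 30 groups of values checked this was the 1 found, and chance gives about 1 in 20. The actin ratio of that array, 31.6, was the highest of the 10, and its part in the value was not tested.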

How the results depend on the processing

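The members' median log2 change stayed between 0.36 and 0.61 under every alternative, and between 0.41 and 0.57 with single arrays left out. Members higher at the threshold numbered 1 as deposited, 1 with array weights, 2 with the actin covariate, 2 by the design text's rule and 4 over arrays 1 to 4, with or without the replicate number as a block (Ccna2 only without it, Hmmr only with it), and 0 in the other settings. Members lower at the threshold numbered 0 in all settings. Members with every smoke array above every control numbered 3 of 30 in the main fit, against 264 of 13382 genes. Over arrays 1 to 4 they numbered 9, where 1482 of the 13382 genes qualified, so non-overlap was commoner in all genes there. Without _x_at and _s_at probe sets the count was 1, and over single omissions it was 3 to 7. The all-gene counts beside the 1 and the 7 are given above. For all genes, 3 were higher and 94 lower. The higher count was 8 as deposited, 5 with median centring, 7 without the filter, 10 in the upper 40%, 5 with the floor at the 25th percentile, 14 with probe sets averaged, 10 without smoke arrays 1 and 2 and 5 with Xist as a factor. Higher and lower counts were 41 and 142 with array weights, 151 and 220 with the actin covariate, and 159 and 270 by the design text's rule. Over arrays 1 to 4 they were 418 and 324 without a replicate block and 444 and 344 with it. Over single omissions, 1 to 6 were higher and 58 to 98 lower, with 1 higher when control array 2, smoke array 3 or smoke array 4 was left out and 6 without smoke array 5 or 6. The cause of these moves was not tested.

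The labels give same-numbered arrays only a number in common. Correlations of their deviations were -0.068, 0.171, -0.0605 and -0.0504. The smoke array of the same number correlated best for 0 of 4 control arrays, and the control array of the same number for 1 of 4 smoke arrays. These few values cannot settle whether such arrays were paired. Signs turned for 4 of the members given in full. Tpx2 was at -0.0028 with median centring, -0.25 with array weights, -0.15 without smoke arrays 1 and 2, and -0.090 to 0.33 over single omissions. Ect2 was at -0.0063 with array weights and -0.17 to 0.23 over omissions. Cdca3 was at -0.079 with weights, -0.034 without smoke arrays 1 and 2 and -0.0076 to 0.31 over omissions. Nek2 was at -0.064 without _x_at and _s_at probe sets, -0.13 over arrays 1 to 4 with or without the block, and -0.0046 to 0.32 over omissions. With probe sets averaged, the G1 list's median was -0.20. Low signal limits the 6 members under the filter, of which Ccnf, Ndc80, Kif20a and Bub1 reached the floor on at least 1 array.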
